A study of Oryctolagus cuniculus with 6 samples.

Results

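Solute carriers are membrane proteins that move amino acids, sugars, ions and other small molecules across cell and organelle membranes. The genes described here are those whose probe description on a rabbit Agilent array contains the words solute carrier, or whose gene name in the array file starts with SLC and a digit. They comprise 445 of the 43603 non-control probes, 440 found by description and 5 by gene name alone, and they stand for 196 genes, on an array that names 9721. Each gene is represented by the probe with the highest mean intensity over the 6 arrays. A further 60 genes with an SLC symbol in a rabbit gene table carry neither mark in the array file and were not analysed here. The description also admits 4 proteins that are not carriers, namely NHERF1, NHERF2, RSC1A1 and SLC7A6OS, and they were kept apart as regulators.

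The RNA came from blastocysts of New Zealand White rabbits at 6 days of age. One treatment was vitrification, with a last bath of 20% dimethyl sulphoxide and 20% ethylene glycol before the straws entered liquid nitrogen. The other was slow freezing in 1.5 M dimethyl sulphoxide, with seeding at -7 °C and cooling at 0.3 °C per minute to -35 °C. Treated embryos had been transferred to recipient females before collection, and the controls were untreated embryos of the same strain and age, developed in vivo. Every ratio of treated over control thus joins cryopreservation with transfer, and these arrays cannot tell them apart. Each of the 6 arrays set 1 treated extract against 1 control extract, on 3 arrays for vitrified and 3 for frozen embryos, and the dyes were swapped on replicate 2 of both treatments. Slide 1 held vitrified replicate 1 and frozen replicates 1 and 2, and slide 2 the other 3 arrays. Only embryos that were viable at collection were used. Values are log2 ratios of treated over control, fitted with a standard error (SE) over n = 3 arrays per treatment. The number of embryos per extract is not given in the sources used here, so p-values measure the spread between these extracts.

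The blastocyst is a fluid-filled epithelium, the trophectoderm, around an inner cell mass. Its outer cells take up amino acids and glucose from uterine fluid, and sodium and chloride carried across the epithelium draw water into the cavity. Several amino acid carriers work as pairs, in which a heavy chain (SLC3A1 or SLC3A2) brings a light chain of the SLC7 family to the cell surface, while glucose enters mainly through facilitative carriers of the SLC2 family.

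The array reads each transcript through oligonucleotides of 60 bases, and the position of a probe within its gene bears on several results below. Chromosome positions are those of the array files, whose genome build is not given in the sources used here. For SLC3A1, probes lay at sites that share no run of 20 bases. The brightest lies at chr2:141940010-141940069 on the minus strand and the second one shown, which is not the next in brightness, at chr2:141940081-141940140. Their sequences are shown as readings of 1 transcript at separate sites, on the same extracts and arrays.
SLC3A1 brightest probe: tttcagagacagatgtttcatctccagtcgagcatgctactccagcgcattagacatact
SLC3A1 second site: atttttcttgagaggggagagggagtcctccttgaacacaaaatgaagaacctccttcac
For SLC7A9 the probes overlap, and capitals mark the 40 bases that the brightest probe (chr5:2830510-2830569, minus strand) shares with its neighbour (chr5:2830490-2830549). They are shown because close values of such probes are repeated readings of 1 site.
SLC7A9 brightest probe: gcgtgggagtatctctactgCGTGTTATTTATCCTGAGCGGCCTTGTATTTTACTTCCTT
SLC7A9 neighbour: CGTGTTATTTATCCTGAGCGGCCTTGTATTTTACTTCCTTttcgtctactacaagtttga
For SLC30A4 the brightest probe (chr17:27112936-27113725, plus strand) and its neighbour (chr17:27112976-27113765) share the 20 bases in capitals, and both spans in the file exceed the probe length.
SLC30A4 brightest probe: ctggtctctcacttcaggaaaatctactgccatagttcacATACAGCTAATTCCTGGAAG
SLC30A4 neighbour: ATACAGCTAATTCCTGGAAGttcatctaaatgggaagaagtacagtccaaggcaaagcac
SLC7A8 and SLC8A1 each have 5 probes that overlap in all but a few bases and 1 probe far away, at chr17:43358928-43358987 on the minus strand and chr2:146061580-146061639 on the plus strand. These distant probes are shown because their values differ from those of the overlapping ones.
SLC7A8 distant probe: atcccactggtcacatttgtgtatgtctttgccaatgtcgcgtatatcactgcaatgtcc
SLC8A1 distant probe: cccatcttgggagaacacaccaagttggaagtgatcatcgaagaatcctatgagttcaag

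Untreated blastocysts gave a signal for most of the carriers. In 104 of the 196 genes the control channel was well above background on all 6 arrays, in 48 on 1 to 5 arrays and in 44 on none. Detection on all 6 arrays reached 17 of 21 mitochondrial, 9 of 12 nucleotide sugar and 14 of 19 metal carriers, but 5 of 19 carriers of bile acids and organic ions. Of the 30 amino acid carriers, 18 were detected on all 6 arrays, among them both heavy chains SLC3A1 and SLC3A2, the light chains SLC7A5, SLC7A6, SLC7A8 and SLC7A9, the neutral amino acid exchanger SLC1A5 and the glutamate carrier SLC1A1. Of the cationic amino acid carriers, SLC7A3 was detected on all 6 control arrays, SLC7A2 on 5 and SLC7A1 on 0. The taurine carrier SLC6A6 and the broad-range amino acid carrier SLC6A14 were not well above background in any channel. Of the 11 sugar carriers, 5 were detected on all 6 control arrays, namely SLC2A1, SLC2A3, SLC2A4, SLC2A8 and the sodium-coupled SLC5A1. The liver and pancreas glucose carrier SLC2A2 was at 0 of 6. Of the 29 ion carriers, 8 were detected on all 6 control arrays and 9 on none. Among the 8 were the sodium-calcium exchanger SLC8A1 and the anion exchanger SLC4A2. The kidney sodium-potassium-chloride cotransporter SLC12A1 was at 0 of 6 control arrays. The flag depends on the brightness of a probe, so a gene without it was not detectable with that probe, and levels of different probes were not set against each other. The same counts over all genes of the array were not made, so these describe the carriers alone. On the 4 arrays with the control in Cy3, 44.7% to 58.0% of all spots were over background in that channel. On the 2 swapped arrays, with the control in Cy5, it was 69.8% for vitrified and 64.2% for frozen replicate 2.

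**Figure D1:**
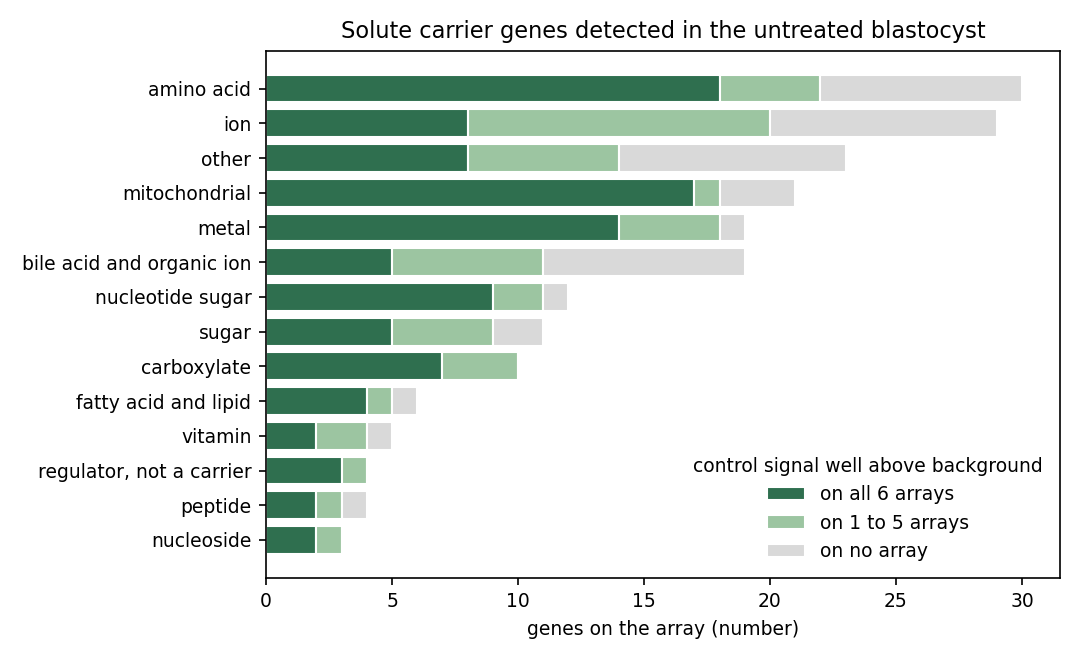
Number of solute carrier genes on the array (horizontal axis) by transported substrate, split by how many of the 6 control channels were well above background. The dark share covers 17 of 21 mitochondrial carriers and 8 of 29 ion carriers.

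Testing required that the scanner flag a probe as well above background in 3 or more of its 12 channel measurements, which 150 of the 196 genes met. No solute carrier gene passed limma's test at an adjusted p under 0.05 in vitrified embryos, 0 of 150, where 0.0195% of the 30761 tested probes passed. In frozen embryos the count was 0 of 150 as well, against 0.185% of all tested probes. The difference between both treatments gave 0 of 150 and 0% of all probes. At an unadjusted p under 0.05, 22 genes were higher and 10 lower in vitrified embryos, against 9.99% and 7.4% of all probes, and as shares of the 150 genes these are 14.7% and 6.67%. In frozen embryos 11 genes were higher and 11 lower, each 7.33%, against 6.06% and 7.17% of all probes. For the difference 8 were higher after vitrification and 5 lower, 5.33% and 3.33%, against 4.06% and 3.48%. The median log2 ratio of the 150 genes was 0.02 in vitrified and 0.0064 in frozen embryos, beside 0.0053 and 0.0062 over all tested probes. Above control on all 3 vitrified arrays were 38 genes, 25.3% against 20.4% of all probes, and below control 17, 11.3% against 16.9%. On all 3 frozen arrays 25 were above, 16.7% against 15.7%, and 14 below, 9.33% against 14.7%. All values below therefore describe genes that did not pass the adjusted test.

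The 23 tested amino acid carriers had a median of 0.16 in vitrified embryos, 17 above 0 and 6 below, and of 0.07 in frozen embryos, 14 above and 9 below. Without vitrified replicate 2 the first median was 0.06. The fit holds a term for the dye, and each replicate 2 is the only swapped array of its treatment. Without it the dye term rests on the arrays of the other treatment alone. Values fitted without a replicate 2, here and below, therefore do not show by themselves what that replicate contributed. The 9 tested sugar carriers had medians of -0.02 and 0.02, and the 19 ion carriers of 0.0076 and -0.03. Mitochondrial carriers stood at -0.05 in vitrified and 0.09 in frozen embryos, and metal carriers at -0.05 and 0.08. The 10 carboxylate carriers stood at 0.12 and -0.07, the 3 peptide carriers at 0.17 and 0.06, and the 2 nucleoside carriers at 0.34 and -0.12. The widest values were those of single genes, SLC7A5 at 0.81 in vitrified embryos and SLC3A1 at -1.72 in frozen embryos. Both treatments are read against control extracts of the same replicate numbers, so a likeness between them is not independent. Whether arrays of the same number share a control extract is not certain, so the control levels below may not all be separate extracts.

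**Figure D2:**
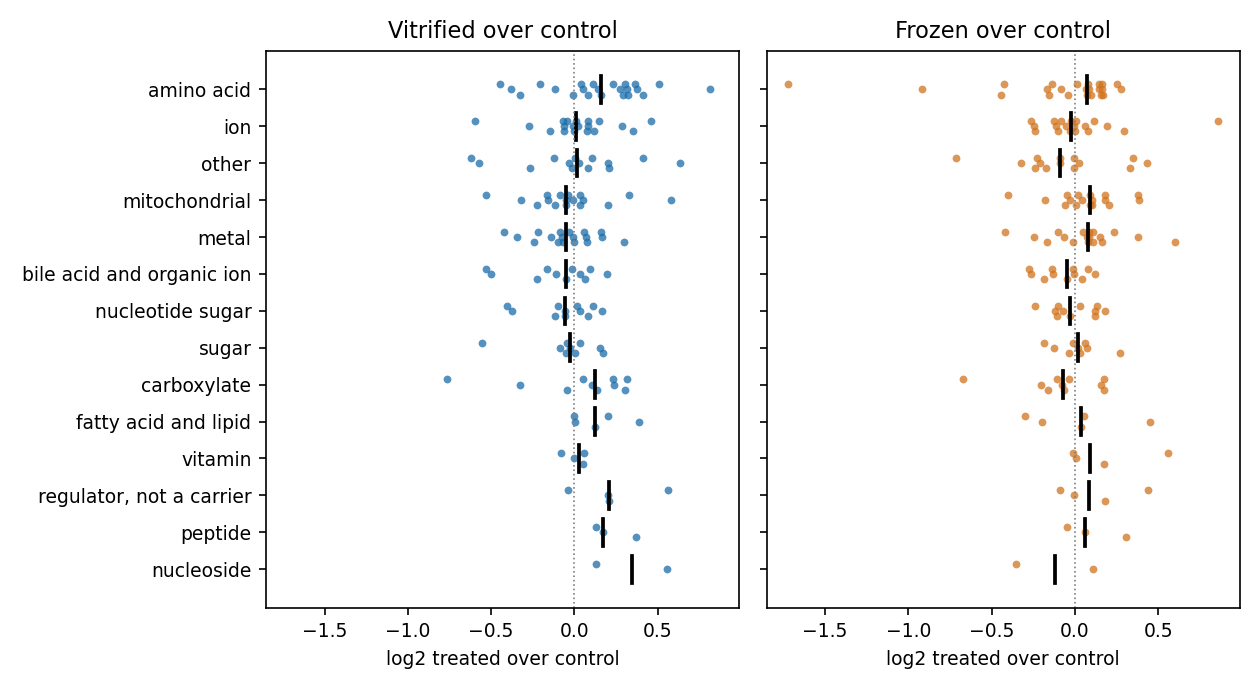
Fitted log2 ratio of treated over control (horizontal axis) of the tested genes, 1 point per gene, by substrate class, with the class median as a black bar, for vitrified (left) and frozen (right) embryos. The amino acid carriers have a median of 0.16 in vitrified embryos and hold the lowest frozen value, SLC3A1 at -1.72.

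The heavy chain SLC3A1 and its light chain SLC7A9, which together take up cystine and dibasic amino acids in kidney and intestine, were below control on every frozen array. For SLC3A1 the control log2 levels were 10.06, 9.73 and 8.97 on the vitrified arrays 1 to 3 and 10.12, 9.81 and 9.0 on the frozen arrays. The treated levels beside them were 8.32, 9.49 and 9.55 in vitrified and 8.21, 8.0 and 7.50 in frozen embryos. All frozen embryos thus lay below every control, while vitrified replicate 1 was low and replicates 2 and 3 lay within the control range. The ratios were -1.74, -0.24 and 0.58 for vitrified and -1.92, -1.81 and -1.51 for frozen embryos. The frozen value was -1.72 ± 0.38 (SE, n = 3 arrays, limma adjusted p = 0.138, range over the alternatives 0.00685 to 1), and the vitrified value -0.45 ± 0.38 (adjusted p = 0.574). All 4 probes, at 4 separate sites, were at -1.72 to -1.31 in frozen embryos. The difference between the treatments was 1.28 ± 0.51 (adjusted p = 0.648). It was 0.12 between the arrays of slide 1 and 1.68 between those of slide 2, where vitrified replicate 1 was absent. Values by slide, here and below, are means of ratios without a dye term. On each slide the dyes are not balanced between the treatments. As arrays were left out the difference ranged from 0.66 to 1.98. Without vitrified replicate 1 the vitrified value was 0.17, and the frozen value was -1.81 with an adjusted p of 0.0147.

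SLC7A9 had ratios of 0.56, -0.06 and 0.74 in vitrified and of -0.27, -0.64 and -0.07 in frozen embryos. Every vitrified ratio was above every frozen one, as in 15 carriers, 10% of the 150 genes against 5.75% of all probes. The fitted values were 0.32 ± 0.10 in vitrified (n = 3 arrays, limma adjusted p = 0.212) and -0.42 ± 0.10 in frozen embryos (adjusted p = 0.162). The difference of 0.74 ± 0.14 had an adjusted p of 0.412, and it was 1.01 on slide 1 and 0.42 on slide 2. The 4 overlapping probes gave differences of 0.74 to 0.85, as 1 site, with adjusted p down to 0.283.

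SLC7A8, a light chain for neutral amino acids that pairs with SLC3A2, had ratios of -1.24, -0.15 and 0.08 in vitrified and -1.60, -0.42 and -1.08 in frozen embryos. The frozen value was -0.92 ± 0.24 (n = 3 arrays, limma adjusted p = 0.179). Its 5 overlapping probes ranged from -0.95 to -0.92, whereas the distant probe was at -0.10 in frozen and 0.12 in vitrified embryos, with a control channel over background on 4 of 6 arrays. The 2 sites of SLC7A8 thus differ in size, and in vitrified embryos in sign.

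The median of endoderm markers had the same order of arrays as SLC3A1 within the vitrified group. The median ratio of 5 tested markers out of 8 was -1.07, 0.10 and 0.43 on the vitrified arrays and -1.35, -1.08 and -0.93 on the frozen arrays. Their summed normalised signal ranged from 7360 to 14127 in controls, from 6407 to 12482 in vitrified and from 3617 to 5677 in frozen embryos. The tested markers were GATA4, APOA1, APOB, RBP4 and TF, none of which passed the test, and the control signal of TTR was at 0 of 6 arrays. On vitrified replicate 1, APOA1, RBP4 and TF were at -1.45, -1.34 and -1.07 and APOB at -0.79, but GATA4 was at 0.01. On the frozen arrays GATA4 was at -0.09, -0.37 and -0.20. APOB, at 0.03 and 0.01 on vitrified replicates 2 and 3, did not have the order of SLC3A1. The part of these markers in the values of SLC3A1 and SLC7A8 was not tested, and in whole embryos fewer cells of a type and less RNA per cell cannot be told apart.

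SLC7A5, the light chain for large neutral amino acids, had ratios of 0.72, 1.01 and 0.39 in vitrified and of -0.88, 0.61 and 0.44 in frozen embryos. It was above control on all 3 vitrified arrays, and frozen replicate 1 stood apart from the other frozen arrays. The vitrified value was 0.81 ± 0.23 (n = 3 arrays, limma adjusted p = 0.19), and the frozen value 0.16 ± 0.23 (adjusted p = 0.832). Its heavy chain SLC3A2 had ratios of 0.09, 0.68 and 0.37 in vitrified and of -0.34, -0.49 and 0.33 in frozen embryos, with fitted values of 0.38 ± 0.18 and -0.17 ± 0.18. Without vitrified replicate 2 the fitted vitrified value of SLC3A2 was -0.0099, below both remaining ratios, 0.09 and 0.37. The dye term then came from the frozen arrays alone, so this fall does not show that the value rested on replicate 2.

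SLC1A5, which exchanges glutamine and other neutral amino acids, was opposite in both treatments. Its control log2 levels were 12.55, 12.36 and 12.31 on the vitrified arrays and 12.43, 12.30 and 11.72 on the frozen arrays. Vitrified embryos were at 12.97, 12.74 and 13.15 and frozen embryos at 11.89, 11.73 and 11.61. Every vitrified level was above every control level, and the frozen levels overlapped the lowest control. The ratios were 0.42, 0.39 and 0.84 for vitrified and -0.53, -0.56 and -0.11 for frozen embryos. The fitted values were 0.51 ± 0.13 (n = 3 arrays, limma adjusted p = 0.175) and -0.44 ± 0.13 (adjusted p = 0.207). The difference was 0.95 ± 0.17, with an unadjusted p of 0.000745 and an adjusted p of 0.409 (range over the alternatives 0.042 to 0.999). As means of ratios without a dye term it was 0.97 on slide 1 and 0.72 on slide 2. The second probe, at another site, gave a fitted difference of 0.65. SLC1A5 was 1 of 5 carriers above 0 on all vitrified and below 0 on all frozen arrays, 3.33% of the 150 genes against 1.11% of all probes, and the others were SLC14A1, SLC29A1, SLC5A11 and SLCO1B3. The reverse held for SLC25A16 and SLC30A4, 1.33% against 1.4%.

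**Figure D3:**
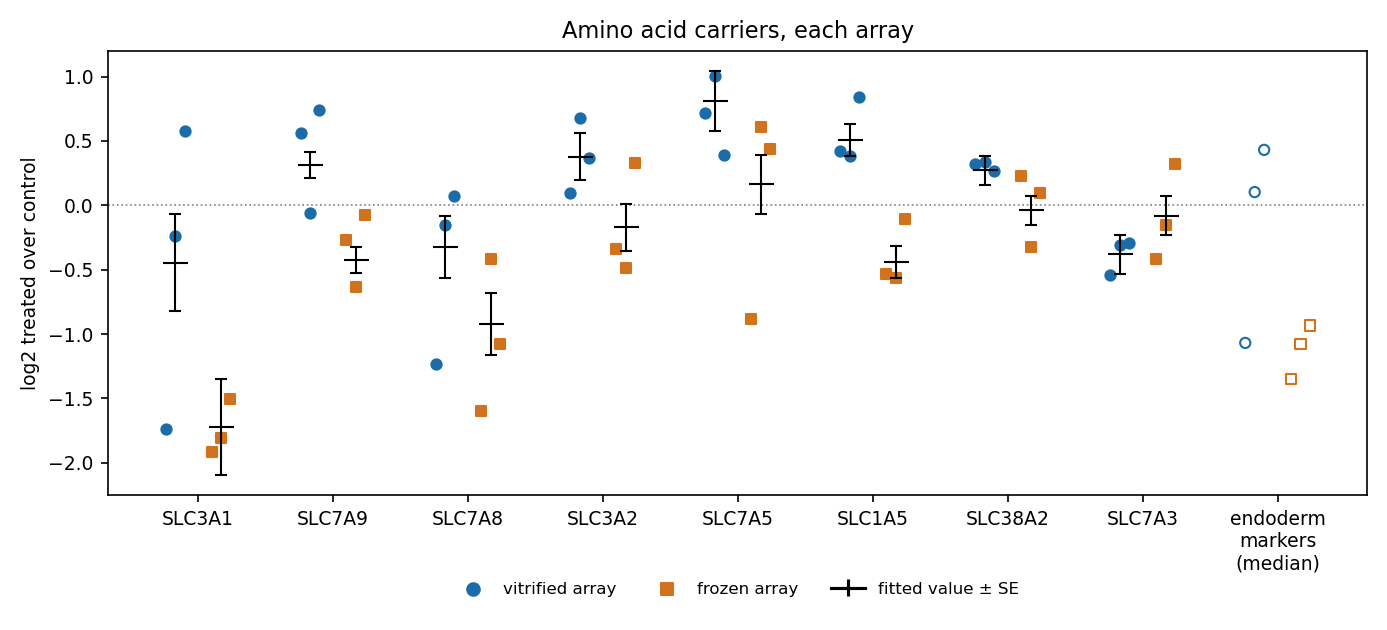
Log2 ratio of treated over control (vertical axis) of 8 amino acid carriers on the 3 vitrified and 3 frozen arrays, in order of replicate within each group, with the fitted value and its SE, and the median ratio of 5 endoderm markers as open symbols. SLC3A1 and the marker median are low on vitrified replicate 1 and on all frozen arrays, and the SLC1A5 groups lie on opposite sides of 0.

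Among sodium-coupled amino acid carriers, SLC38A6 had vitrified ratios of 0.30, 0.30 and 0.29 and a fitted value of 0.29, and its 3 sites ranged from 0.23 to 0.29. SLC38A2, a stress-responsive neutral amino acid carrier, was at 0.27 and above control on all 3 vitrified arrays. Without vitrified replicate 2 its fitted value was 0.05, with the dye term taken from the frozen arrays alone. SLC38A3, a glutamine carrier, was at 0.37 and SLC36A4, of another amino acid carrier family, at 0.32, with a second overlapping probe at 0.18. The related SLC38A5 was at 0.14 and SLC38A11 at 0.08. The glycine carrier SLC6A5 was at 0.42 (ratios 0.52, 0.50 and 0.14). In frozen embryos SLC38A2, SLC38A3, SLC38A6, SLC36A4 and SLC6A5 were at -0.04 to 0.16. SLC38A9, a lysosomal carrier that senses arginine, was at 0.16 in vitrified and 0.17 in frozen embryos. SLC6A19, a neutral amino acid carrier of intestine and kidney, was at 0.31 and 0.28. Its vitrified replicate 1 was at -0.285, while all 3 frozen ratios were above 0. The frozen value was 0.09 without frozen replicate 3. Fitted values were -0.17 in vitrified embryos without vitrified replicate 2 and 0.75 in frozen embryos without frozen replicate 2. Each of these fits took its dye term from the other treatment alone, so they do not show how far the values rested on replicate 2.

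Among cationic amino acid carriers, SLC7A3 had ratios of -0.54, -0.31 and -0.29 in vitrified and of -0.42, -0.15 and 0.32 in frozen embryos, with a vitrified value of -0.38 (limma adjusted p = 0.264). SLC7A2 was below 0 on all 6 arrays with its brightest probe, at -0.21 and -0.16. The 3 overlapping probes of that site were at -0.21 to -0.08 in vitrified and -0.18 to 0.04 in frozen embryos, and a second site gave -0.33 and -0.04. SLC7A1 was at 0.12 and 0.07, without a control signal well above background. The light chain SLC7A6 was at -0.0068 and 0.16 with its brightest probe, while the 5 overlapping probes of a second site were at 0.22 to 0.28 in vitrified and 0.13 to 0.16 in frozen embryos. The glutamate carrier SLC1A1 was at -0.12 in vitrified and 0.26 in frozen embryos, and every vitrified ratio was below every frozen one, as in 4 carriers, 2.67% against 4.88% of all probes.

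SLC2A1, the widely expressed facilitative glucose carrier, had ratios of 0.15, -0.32 and 0.15 in vitrified and of -0.23, 0.20 and 0.15 in frozen embryos. Both groups overlapped 0, and the fitted values were -0.02 ± 0.14 and 0.02 ± 0.14 (n = 3 arrays, limma adjusted p = 0.946 and 0.972). SLC2A3, a high-affinity glucose carrier of trophoblast and neurons, had ratios of 0.23, -0.28 and 0.12 in vitrified and of 0.49, 0.06 and 0.48 in frozen embryos. All 3 frozen arrays were above control. The frozen value was 0.27 ± 0.09 (adjusted p = 0.258), with 5 overlapping probes at 0.27 to 0.32, and its vitrified value -0.05 ± 0.09, a difference of -0.32 ± 0.12 (adjusted p = 0.647). SLC2A8, which responds to insulin in the mouse blastocyst, was at 0.0047 and -0.0096, with vitrified ratios from -0.66 to 0.40. The sodium-coupled SLC5A1 was at 0.17 and 0.06, with 3 overlapping probes at 0.05 to 0.17 and -0.03 to 0.06. The 2 overlapping probes of a second site were at -0.18 to 0.06 in vitrified and 0.02 to 0.11 in frozen embryos. The fructose carrier SLC2A5 was at -0.09 and -0.13.

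SLC2A4, the insulin-responsive carrier of muscle and fat, was the widest of the sugar carriers. Its ratios were 0.68, -1.32 and -0.62 in vitrified and -0.29, -0.20 and 0.33 in frozen embryos, so that the vitrified arrays lay on both sides of 0. The vitrified value was -0.55 ± 0.28 (n = 3 arrays, limma adjusted p = 0.346), and -0.08 without vitrified replicate 2. A probe at a second site gave -0.12. The glucose-6-phosphate carrier of the endoplasmic reticulum, SLC37A4, was at 0.15 and 0.07.

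**Figure D4:**
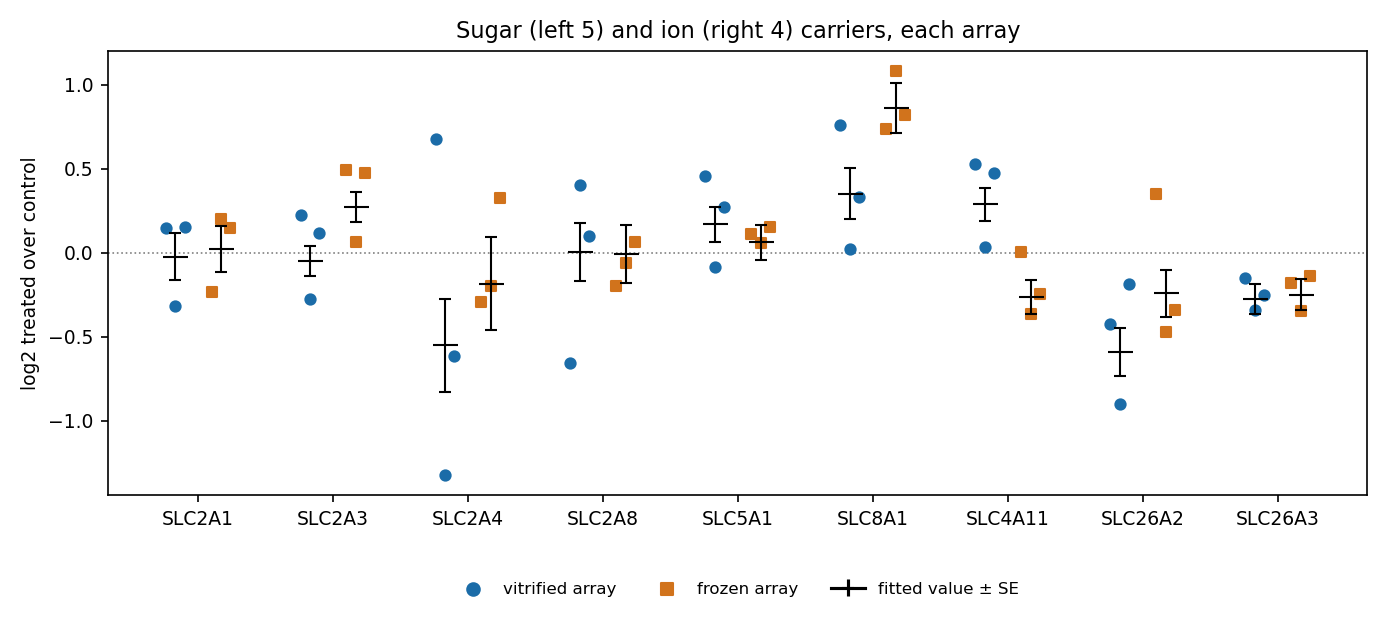
Log2 ratio of treated over control (vertical axis) of 5 sugar carriers (left) and 4 ion carriers (right) on each array, with the fitted value and its SE. SLC2A1 straddles 0 in both treatments, and the frozen arrays of SLC8A1 lie between 0.74 and 1.08.

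The ion carrier SLC8A1, which exports calcium in exchange for sodium, had the smallest adjusted p among the brightest probes of the carriers. Its control log2 levels were 8.33, 9.48 and 9.20 on the vitrified and 9.05, 9.51 and 9.48 on the frozen arrays. Frozen embryos were at 9.79, 10.59 and 10.30, all above every control, and vitrified embryos at 9.09, 9.49 and 9.54. The ratios were 0.74, 1.08 and 0.82 for frozen and 0.76, 0.02 and 0.33 for vitrified embryos. The fitted values were 0.86 ± 0.15 in frozen (n = 3 arrays, limma adjusted p = 0.0962, range over the alternatives 0.00554 to 1) and 0.35 ± 0.15 in vitrified embryos (adjusted p = 0.289). Without vitrified replicate 1 the frozen value was 0.89 and its adjusted p 0.0263. Without frozen replicate 2 the fitted frozen value was 0.51, with the dye term taken from the vitrified arrays alone, while the remaining frozen ratios were 0.74 and 0.82. The frozen value was 0.91 on slide 1 and 0.82 on slide 2. The 5 overlapping probes ranged from 0.78 to 0.89 in frozen embryos, with adjusted p of 0.0648 to 0.112. The distant probe was at 0.39 in frozen and -0.17 in vitrified embryos, with a control channel over background on 4 of 6 arrays.

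**Figure D5:**
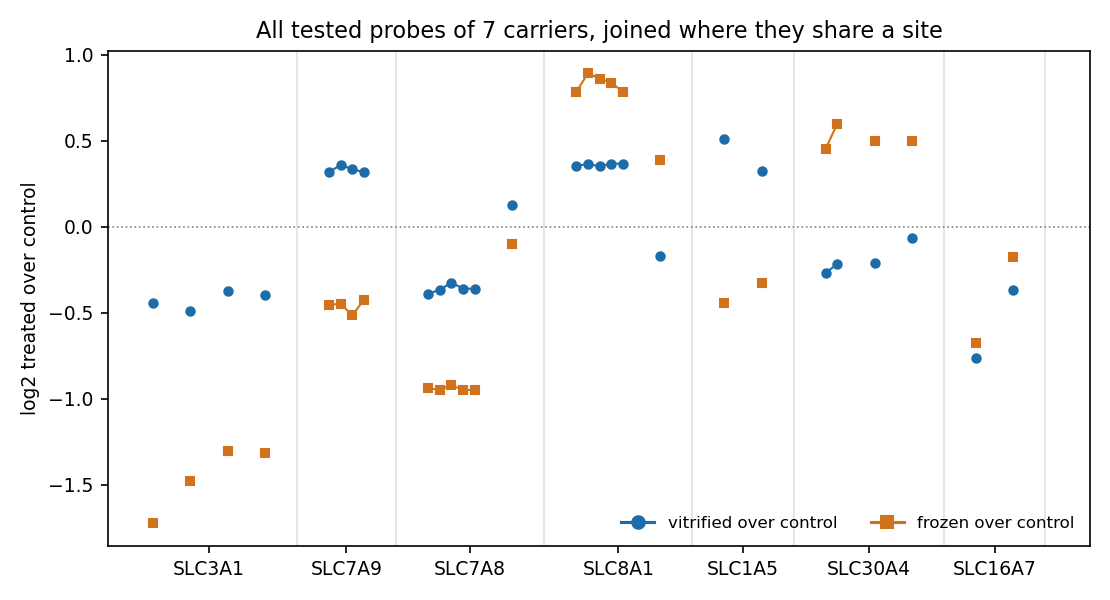
Fitted log2 ratio (vertical axis) of every tested probe of 7 carriers, with probes that share a run of at least 20 bases joined by a line and separate sites apart. The 4 sites of SLC3A1 lie between -1.72 and -1.31 in frozen embryos, whereas the distant probes of SLC7A8 and SLC8A1 depart from the overlapping ones.

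The endosomal exchanger SLC9A7 was at 0.0076 in vitrified and 0.06 in frozen embryos. SLC4A11, known from the corneal endothelium, was at 0.29 in vitrified and -0.26 in frozen embryos, a difference of 0.55 (adjusted p = 0.592). The anion exchanger SLC4A2 was at 0.07 and -0.13 and the sodium-bicarbonate carrier SLC4A4 at 0.08 and 0.20, with overlapping probes at -0.08 to 0.14 and -0.10 to 0.20.

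The sulphate carrier SLC26A2 had ratios of -0.43, -0.90 and -0.19 in vitrified and of 0.35, -0.47 and -0.34 in frozen embryos. Its vitrified value was -0.59 ± 0.14 (n = 3 arrays, limma adjusted p = 0.168), and frozen replicate 1 stood apart from the other 5 arrays. SLC26A3, a chloride-bicarbonate exchanger, was below 0 on all 6 arrays, at -0.27 and -0.25, but a second probe of the same site was at -0.0048 and -0.03. NHERF1, a scaffold that binds exchangers at the apical membrane, was at 0.56 in vitrified and 0.44 in frozen embryos (adjusted p = 0.251 and 0.436). The red cell anion exchanger SLC4A1 was at -0.07 and -0.12, while the globin gene HBA was at 2.27, 2.42 and 2.52 on the vitrified arrays. The blood marker list, 3 of 4 genes tested, had a summed signal of 2690 to 11496 in controls, 14942 to 161988 in vitrified and 4249 to 40442 in frozen embryos, and PTPRC was at 0 of 6 control arrays.

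Carriers of lactate, nucleosides and creatine held several of the smallest p-values in vitrified embryos. SLC16A7, a carrier of pyruvate and lactate, had ratios of -0.30, -1.21 and -0.57 in vitrified and of -0.43, -0.64 and -0.75 in frozen embryos. It was below control on all 6 arrays, at -0.76 ± 0.14 (n = 3 arrays, limma adjusted p = 0.144) and -0.68 ± 0.14 (adjusted p = 0.132), and its second probe, at another site, was at -0.37 and -0.18. Without vitrified replicate 2 the vitrified value was -0.46. The related SLC16A1 was at -0.04 and 0.16. SLC6A8, which takes up creatine, had ratios of 0.52, 1.01 and 0.10 in vitrified and of -0.03, 0.51 and 0.29 in frozen embryos, with values of 0.63 ± 0.13 (adjusted p = 0.145) and 0.35 ± 0.13 (adjusted p = 0.303).

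SLC29A1, the equilibrative carrier of adenosine and other nucleosides, had the smallest adjusted p for the difference between the treatments among the brightest probes. Its control log2 levels were 11.62, 11.25 and 11.94 on the vitrified and 11.80, 11.31 and 11.35 on the frozen arrays. Vitrified embryos were at 12.09, 12.04 and 12.11 and frozen embryos at 11.00, 11.20 and 10.96. All vitrified levels were above and all frozen levels below the controls. The ratios were 0.47, 0.78 and 0.18 for vitrified and -0.80, -0.12 and -0.38 for frozen embryos. The fitted values were 0.56 ± 0.12 (n = 3 arrays, limma adjusted p = 0.148) and -0.36 ± 0.12 (adjusted p = 0.259), a difference of 0.91 ± 0.16 (adjusted p = 0.385, range over the alternatives 0.0456 to 0.999). The difference was 0.93 on slide 1 and 0.86 on slide 2. Its 5 probes overlap and count as 1 site, on chr12:33614171-33614230 for the brightest. The second nucleoside carrier, SLC29A2, was at 0.13 and 0.11.

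Among metal carriers, SLC30A4, which loads zinc into vesicles, was above control in frozen embryos. Its ratios were 0.96, 0.34 and 0.57 in frozen and -0.28, -0.13 and -0.15 in vitrified embryos, on opposite sides of 0. The frozen value was 0.60 ± 0.13 (n = 3 arrays, limma adjusted p = 0.131) and the difference, vitrified minus frozen, was -0.82 ± 0.17 (adjusted p = 0.477). Over its 3 sites the frozen value ranged from 0.45 to 0.60, the overlapping pair shown above included. The zinc importer SLC39A10 was at -0.34 in vitrified (-0.14 without vitrified replicate 1) and -0.42 in frozen embryos, and SLC39A8, which takes up zinc and manganese, at -0.24 and -0.10. The iron carrier SLC11A2 was at -0.01 and 0.24. The copper carrier SLC31A1 had a frozen ratio of 1.59 on replicate 1 and of -0.72 and 0.18 on replicates 2 and 3, so that its fitted 0.15 rests on arrays that disagree.

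The thiamine carrier SLC19A3 had ratios of 0.67, 0.35 and 0.86 in frozen and of 0.62, -0.26 and -0.40 in vitrified embryos, with a frozen value of 0.56 ± 0.18 (n = 3 arrays, limma adjusted p = 0.249). All 3 of its sites were at 0.56 to 0.66 in frozen embryos. SLC44A5, a choline carrier-like protein, was at 0.39 and 0.45, with frozen ratios of 0.10, 0.84 and 0.35. Without frozen replicate 2 its fitted frozen value was 0.02, below both remaining ratios, with the dye term taken from the vitrified arrays alone. SLC15A2, a proton-coupled peptide carrier, was at 0.37 and 0.31, the latter 0.20 without frozen replicate 1. Over its 5 sites the values ranged from 0.13 to 0.37 in vitrified and from 0.19 to 0.31 in frozen embryos, the brightest probe being highest in both. The fatty acid carrier SLC27A2 was at -0.0017 in vitrified and -0.30 in frozen embryos. SLC13A2, a carrier of citrate and other dicarboxylates, was at 0.24 and -0.11, and the folate carrier SLC19A1 at 0.06 and -0.01. SLC10A7, a relative of the bile acid carriers, was above control on all 6 arrays, at 0.41 and 0.43 (adjusted p = 0.178 and 0.163). The prostaglandin carrier SLCO2A1 was at -0.05 and -0.13.

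In the mitochondrial family, SLC25A39, which imports glutathione, was at 0.58 in vitrified and 0.38 in frozen embryos (limma adjusted p = 0.185 and 0.357), with ratios of 0.50, 0.91 and 0.10 and of 0.54, 0.52 and -0.16. SLC25A32, a folate and flavin carrier, was at -0.32 and 0.007. The ADP/ATP carrier SLC25A4 had ratios of 1.31, -0.79 and 0.51 in vitrified and of 0.98, -0.53 and 1.58 in frozen embryos. These were above 0 on the 4 arrays with the treated sample in Cy5 and below 0 on the 2 swapped arrays, and the fit with a dye term gave 0.05 ± 0.18 and 0.39 ± 0.18. The same pattern of signs was seen in 14 of the 150 genes, 9.33% against 7.44% of all probes, including the phosphate carrier SLC25A3 at -0.05 and 0.10, and the reverse in 1, SLC2A5, 0.667% against 2.31%. In the Golgi, the nucleotide sugar carrier SLC35A5 was at -0.37 in vitrified and -0.10 in frozen embryos, and a second site gave -0.15 and 0.0094.

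Genes that carriers depend on were read from the same fit. Of 22 such partner genes 13 were tested, and 0 passed in either treatment. ATP1B1, a subunit of the sodium pump that sets the gradient for sodium-coupled carriers, was at 0.39 in vitrified and 0.41 in frozen embryos. BSG, the chaperone of lactate carriers, had vitrified ratios of -0.23, 1.03 and -0.13. CA4, a carbonic anhydrase of the cell surface, was at 0.59 and 0.64, and the mitochondrial uncoupling protein UCP2 at 0.96 and 0.67 (limma adjusted p = 0.144 and 0.185).

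Markers of the trophectoderm, the outer epithelium, were detected on all 6 control arrays for the 5 tested genes of 8. Their median was 0.36 in vitrified and 0.34 in frozen embryos, and their summed signal was 16970 to 27933 in controls, 25343 to 30879 in vitrified and 23483 to 25548 in frozen embryos. The 3 tested markers of the inner cell mass, of 5, were at a median of -0.09 and -0.51. Uterine markers, 3 of 4 tested, had a summed signal of 1412 to 3414 in controls, 3968 to 6977 in vitrified and 1446 to 4135 in frozen embryos. The part of these lists and of the blood list in the carrier values was not tested. The share of spots over background was 44.7% to 58.0% for Cy3 (green) and 64.2% to 74.5% for Cy5 (red).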

How the data were processed

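Total RNA (100 ng) of each extract was labelled with Cy3 or Cy5, per the labels. Spot mean intensity and local background median were deposited without normalisation, as Agilent Feature Extraction 10.10.1.1 output per the file headers. That software's own log10 ratio (red over green, background-subtracted and dye-normalised), also deposited, served as an alternative.

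Background was corrected with normexp (offset 50) in limma 3.58.1 under R 4.3.3, and loess was applied within arrays, giving control spots no weight. Non-uniform outlier spots were left out, and repeated spots were averaged. The filter kept probes over background in 3 or more of 12 channel measurements. A coefficient per treatment and a dye term were fitted over the 6 arrays, leaving 3 residual degrees of freedom, with eBayes. Adjusted p is Benjamini-Hochberg over all 30761 probes, threshold 0.05. Exact tests were not used, since 3 against 3 arrays cannot reach below 0.1. Log2 levels are from Aquantile scaling. The number of arrays limits the precision. The fit was tested on simulated data.

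Gene names came from a rabbit gene table (assembly mOryCun1.1) for 187 genes and from the array file for 9. The members, the classes, the lists and the rule for named genes were chosen with earlier results of these data known. For each comparison and direction the rule takes the 8 largest values at unadjusted p under 0.05 with the same direction on every array, plus carriers listed by name. The class of regulators, and genes outside the rule such as SLC31A1, SLC36A4, SLC38A3, SLC38A6, SLC38A9, SLC37A4, SLC29A2 and NHERF1, were chosen after their values were seen. Alternatives covered background, normalisation, filter, dye, slide, replicate block, spread, weights, probe choice, threshold and leaving out each array. Scan and slide coincide, and both slides hold both treatments. Some genes that the rule takes are not reported here.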

Additional observations from a re-analysis of the deposited data

How the results depend on the processing

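The count of carriers past the test was 0 under all alternatives run except 3. With array weights it was 10 in vitrified embryos, 17 in frozen embryos and 2 for the difference, where 4.35%, 12.6% and 0.289% of all tested probes passed. Leaving out arrays in turn gave 0 to 2 in frozen embryos, with 2 (SLC3A1 and SLC8A1) without vitrified replicate 1, when 1.67% of all probes passed. At an adjusted p under 0.10 it was 1 in frozen embryos, 0.667% of the carriers against 0.608% of all probes. The amino acid median in vitrified embryos was 0.29 with the deposited log ratio and 0.28 over probes well above background in all 12 measurements, and 0.0612 to 0.1956 as arrays were left out. In frozen embryos it ranged from -0.0265 to 0.0861 as arrays were left out, below 0 without frozen replicate 3. Counting ion carriers detected on at least 4 of 6 control arrays gave 15 in place of 8.

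Of 122 values of named carriers recomputed 2334 times, 103 changed sign, in 47 of the values. Only SLC3A2 in vitrified embryos did so from over 2 SE from 0, at -0.0099 without vitrified replicate 2, in a range from -0.0099 to 0.53 as arrays were left out. That fit took its dye term from the frozen arrays alone, and the SLC3A2 ratio was above 0 on every vitrified array. Under an alternative 26 passed, 24 of them with array weights. Arrays of the same replicate number deviated with correlations of 0.0175, 0.594 and 0.166. The dye was not taken out of these deviations, and replicate 2 was swapped in both treatments, so they cannot decide on a pairing. The main fit did not take the number as a pairing. With a replicate block, random or fixed, the count stayed at 0 in the comparisons it could be run for, and the SLC1A5 difference was 0.95 (limma adjusted p = 0.409, fixed block). Brightness limits detection, since a carrier at 0 of 6 arrays may be expressed below what its probe shows.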
